A study of Mus musculus with 22 samples.

Results

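The genes described here are 40 genes of the cell cycle, taken as a fixed list and looked up by symbol among the 23997 genes of the deposited table. The list holds 22 genes of DNA replication and 18 genes of mitosis, and all 40 were found. The libraries were made from colon of wild type BALB/c mice that were 5 weeks old when 3 weeks of drinking began. DSS mice (n = 5) drank distilled water, HMLS mice (n = 4) and TM mice (n = 5) drank 1 of 2 deep sea water samples known by those codes, and in the last week the drink of all 3 groups contained 5% dextran sulfate sodium (DSS), which damages the lining of the colon and causes colitis. CON mice (n = 8) drank distilled water throughout, and n counts libraries in each group. No group received a deep sea water without dextran sulfate sodium, so an effect of the waters on their own cannot be told apart from that of the colitis in comparisons with CON. A library is called by its group and the replicate number of its label, such as DSS 1, and the numbers of a group have gaps. The labels do not say whether each library is a separate mouse, so the p-values measure the spread between these libraries.

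In the colon, dividing cells sit mainly in the lower crypt, where stem cells and their transit-amplifying daughters replace the epithelium every few days. Before a cell copies its DNA, the origin proteins Cdc6 and Cdt1 load the ring of 6 Mcm proteins (Mcm2 to Mcm7), which Cdc45 and the GINS proteins turn into the moving helicase. Pola1 and Prim1 then prime the new strands, Rfc4 helps to load the sliding clamp Pcna, Fen1 and Lig1 join the fragments, and Rrm1, Rrm2 and Tyms supply nucleotides. Later in the cycle the kinase Cdk1 and its cyclins start mitosis, Plk1 and the Aurora kinases build the spindle, Bub1 and Bub1b guard the attachment of chromosomes, and Cdc20 releases them. Replication genes are classically driven by E2F factors at the entry into S phase, and many mitosis genes by the DREAM and B-Myb/FoxM1 complexes through a promoter element called CHR.

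The promoters of the members carried both kinds of letters, divided by class. RefSeq windows on build GRCm38.p6, from 250 bases before to 50 after the start, were found for 34 of 40 members. An E2F word (TTTCGCGC, TTTGGCGC, TTTCCCGC or TTTGCCGC, either strand) stood in 9 of 24 windows of replication members (37.5%), in 1 of 15 of mitosis members (6.67%) and in 744 of all 32851 windows (2.26%). The CHR word TTTGAA, on either strand, stood in 3 of 24 (12.5%) and in 10 of 15 (66.7%), against 17.9% of all windows. E2F and CHR words cannot overlap each other, but E2F words of opposite strands can, as they do in Mcm5 and Mcm6. The replication members with an E2F word were Cdc6, Cdt1, Lig1, Mcm3, Mcm5, Mcm6, Mcm7, Pola1 and Uhrf1. Of the 9 members called lower in DSS against CON (below), 8 had a window and 4 of these had an E2F word (Mcm3, Mcm5, Mcm6 and Pola1). Cdc6, Cdt1, Lig1, Mcm7 and Uhrf1 have the word and were not called in DSS. A word is a match of letters, not a bound site. The 200 bases before the start are shown for 3 members whose levels fell and have an E2F word (Mcm5, chr8:75109309-75109508, plus strand; Mcm6, chr1:128359706-128359905, minus strand; Pola1, chrX:93632156-93632355, minus strand). Beside them are 3 mitosis members with CHR words (Cdk1, chr10:69352913-69353112; Top2a, chr11:99024190-99024389; Mki67, chr7:135716380-135716579; all minus strand). Each runs 5′ to 3′ along the gene, with E2F and CHR words in capitals.
Mcm5: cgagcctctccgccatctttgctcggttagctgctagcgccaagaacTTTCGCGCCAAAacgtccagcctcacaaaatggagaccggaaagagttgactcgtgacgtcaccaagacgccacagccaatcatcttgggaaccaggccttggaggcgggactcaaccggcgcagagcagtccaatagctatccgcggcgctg
Mcm6: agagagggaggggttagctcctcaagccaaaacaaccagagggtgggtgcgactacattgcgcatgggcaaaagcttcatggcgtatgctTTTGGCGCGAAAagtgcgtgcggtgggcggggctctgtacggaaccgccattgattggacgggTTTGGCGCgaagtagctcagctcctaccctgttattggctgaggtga
Pola1: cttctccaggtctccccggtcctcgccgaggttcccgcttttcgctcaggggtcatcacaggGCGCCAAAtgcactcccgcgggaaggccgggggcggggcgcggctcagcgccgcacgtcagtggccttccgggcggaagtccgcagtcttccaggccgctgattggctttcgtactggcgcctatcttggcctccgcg
Cdk1: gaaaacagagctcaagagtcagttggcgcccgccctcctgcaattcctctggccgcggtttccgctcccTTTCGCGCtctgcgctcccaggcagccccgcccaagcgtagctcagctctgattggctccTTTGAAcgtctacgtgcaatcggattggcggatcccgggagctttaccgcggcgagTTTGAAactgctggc
Top2a: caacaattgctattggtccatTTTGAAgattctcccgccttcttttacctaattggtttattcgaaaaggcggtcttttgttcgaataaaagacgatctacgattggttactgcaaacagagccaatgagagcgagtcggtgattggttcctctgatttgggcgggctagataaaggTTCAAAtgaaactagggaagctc
Mki67: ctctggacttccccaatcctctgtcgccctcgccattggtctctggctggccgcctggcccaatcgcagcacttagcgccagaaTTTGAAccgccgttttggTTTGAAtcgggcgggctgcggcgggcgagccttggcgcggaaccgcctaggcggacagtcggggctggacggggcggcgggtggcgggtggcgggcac
Mcm5 and Mcm6 each hold a pair of overlapping E2F words, and Mcm6 holds another nearer the start. Cdk1 was the only mitosis member with an E2F word, and it holds CHR words too.

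All 40 members were above 0 in every library and passed the filter of at least 1 FPKM in at least 4 libraries for comparisons with CON. Levels below are in FPKM, which scales the fragments of a gene by its length and by the size of the library, and differences are on the scale log2(FPKM + 1), which understates the change of low genes. In CON colon the clamp Pcna had the highest mean level (60.9 ± 12.8 FPKM, SD, n = 8), followed by the thymidylate synthase Tyms (15.8 ± 2.13), the proliferation marker Mki67 (14.9 ± 6.30), Mcm7 (14.5 ± 4.37) and the topoisomerase Top2a (14.5 ± 6.23). The lowest was the licensing factor Cdc6 (1.21 ± 0.621 FPKM), after the GINS subunit Gins1 (1.74 ± 1.003). Neighbours in this order differed by less than their SD, except Pcna and Tyms.

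Some replication members fell in each colitis group relative to CON, and mitosis members passed the test only in the HMLS comparison. In DSS against CON 9 replication members fell and no mitosis member passed, out of 40 members, while 13.1% of the 13483 genes tested were called lower and 14% higher (limma, Benjamini-Hochberg adjusted p under 0.05). In HMLS against CON 23 members fell, 18 of replication and 5 of mitosis, against a background of 16.6% of 13400 genes lower and 17.5% higher. In TM against CON 7 members fell, all of replication, against 11.8% of 13485 genes lower and 14.3% higher. No member was called higher in any of them. These comparisons share the CON libraries, so their agreement is not independent. The 6 genes lower in all 3 were Mcm2, Mcm6, Pcna, Pola1, Prim1 and Rfc4.

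In DSS the median log2 difference was -0.54 over replication members and -0.42 over mitosis members, where all genes tested had -0.01. In HMLS the medians were -0.74 and -0.69, and in TM -0.52 and -0.37. The mitosis median in DSS was -0.70 without DSS 1, -0.28 without DSS 7 and -0.06 with the percent of reads mapped as a covariate, where the replication medians were -0.73, -0.48 and -0.50. The median SE was larger for mitosis members, 0.29 against 0.23 in DSS, 0.31 against 0.21 in HMLS and 0.28 against 0.22 in TM. The within-group SD of log2 values shows the same: its median over mitosis members was 0.76 in DSS, 0.72 in HMLS and 0.71 in TM, against 0.46 in CON, and over replication members 0.46, 0.34 and 0.46, against 0.42 in CON. Over all genes it was 0.29, 0.26 and 0.22, against 0.20 in CON. A wider spread in colitis was therefore not particular to mitosis members. The difference between the classes was not tested, since the list was chosen with results of these data known. In bulk tissue, fewer dividing cells and less of each RNA per cell cannot be told apart.

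**Figure D1:**
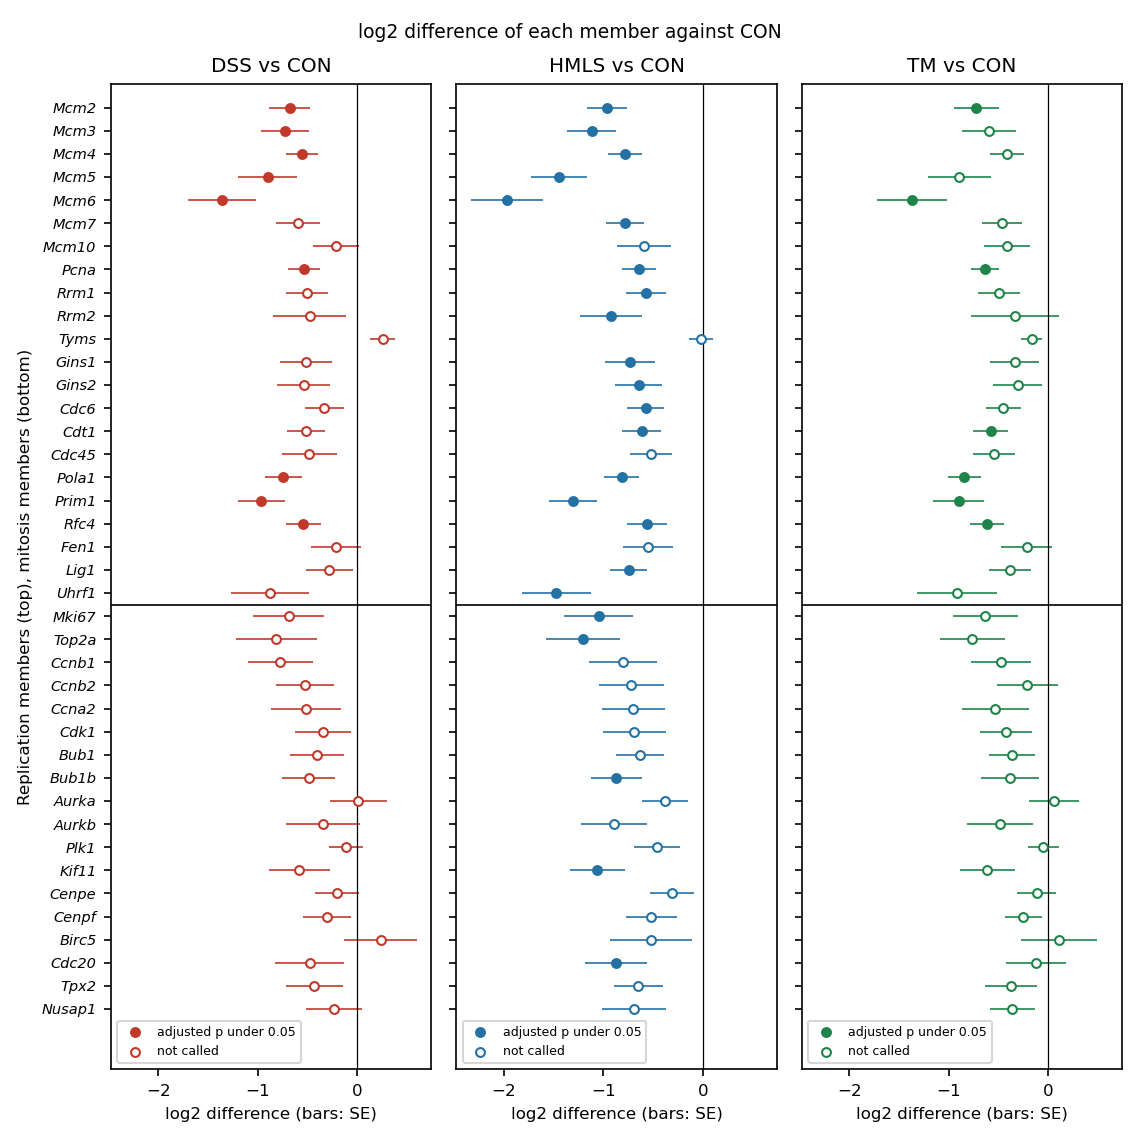
The log2 difference of each member from CON (x axis, with SE bars) in DSS, HMLS and TM, replication members above the line and mitosis members below it; filled points have adjusted p under 0.05. Mcm6 lies farthest to the left in each panel, at -1.36, -1.97 and -1.37, and Tyms, Aurka and Birc5 lie near or right of 0 in DSS.

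Mcm6, of the Mcm2 to Mcm7 ring, had the largest decrease of the members in each comparison with CON. It was at 9.53, 3.57, 1.28, 4.44 and 1.56 FPKM in DSS libraries, at 0.729, 0.565, 3.35 and 4.53 in HMLS libraries and at 10.9, 1.57, 3.94, 1.84 and 2.36 in TM libraries, against 5.80 to 19.9 with a median of 9.87 in CON. Every HMLS library was below every CON library, while DSS 1 and TM 3 lay within the CON range and the other libraries of their groups below it. The log2 difference of Mcm6 was -1.36 ± 0.34 (SE) in DSS (limma adjusted p = 0.0107), -1.97 ± 0.36 in HMLS (0.00186) and -1.37 ± 0.35 in TM (0.0124).

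Mcm5 was at 6.52, 2.58, 1.61, 3.82 and 1.48 FPKM in DSS, at 1.18, 0.812, 2.13 and 2.92 in HMLS and at 8.43, 1.63, 2.91, 1.99 and 1.99 in TM, against 3.47 to 13.6 with a median of 5.95 in CON. Again each HMLS library was below CON, and DSS 1 and TM 3 stood above the CON median. It fell by 0.90 in DSS (adjusted p = 0.035) and by 1.45 in HMLS (0.00198), and its value of -0.89 in TM had an adjusted p of 0.0513 in limma.

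Mcm2 was at 5.03, 3.50, 2.58, 3.14 and 2.11 FPKM in DSS, at 2.91, 2.1997, 2.39 and 2.22 in HMLS and at 5.97, 2.57, 3.09, 2.64 and 1.91 in TM, against 3.85 to 10.4 with a median of 5.48 in CON. Only DSS 1 and TM 3 of the 14 colitis libraries reached the CON range. Its log2 difference was -0.68 ± 0.21 in DSS, -0.97 ± 0.20 in HMLS and -0.72 ± 0.225 in TM (limma adjusted p = 0.0267, 0.00257 and 0.0285).

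Mcm3 was at 4.31, 2.56, 1.72, 3.12 and 2.34 FPKM in DSS, at 1.79, 1.28, 1.79 and 2.66 in HMLS and at 6.73, 2.93, 2.66, 1.9986 and 2.39 in TM, against 2.90 to 10.9 with a median of 4.57 in CON. Mcm4 was at 5.35, 3.36, 2.65, 3.85 and 3.97 FPKM in DSS, at 2.88, 2.28, 3.68 and 3.57 in HMLS and at 6.62, 3.10, 4.74, 3.90 and 3.56 in TM, against 4.46 to 8.94 with a median of 5.66 in CON. HMLS did not overlap CON for either gene, and DSS and TM did. Both fell in DSS (log2 difference -0.73 and -0.56, limma adjusted p = 0.0376 and 0.0229) and in HMLS (-1.12 and -0.78, 0.0043 and 0.00321), but not in TM (-0.60 and -0.41, adjusted p = 0.116 and 0.0834). Mcm7, the remaining subunit, fell by 0.79 in HMLS (adjusted p = 0.00627) and had -0.59 in DSS (0.0566) and -0.47 in TM (0.0971).

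The genes that start and clamp the new strands fell in all 3 comparisons. Pola1, the catalytic subunit of DNA polymerase alpha, was at 3.72, 1.56, 1.48, 2.64 and 1.35 FPKM in DSS, at 1.70, 1.18, 2.30 and 2.56 in HMLS and at 2.88, 1.17, 2.14, 1.47 and 1.78 in TM, against 2.61 to 6.29 with a median of 4.07 in CON. The HMLS libraries were all below CON, and DSS 1, DSS 6 and TM 3 reached into the CON range. Its log2 difference was -0.74 ± 0.19 in DSS, -0.82 ± 0.18 in HMLS and -0.84 ± 0.165 in TM (limma adjusted p = 0.0111, 0.00337 and 0.00264).

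Prim1, the primase that works with Pola1, was at 4.49, 1.93, 2.04, 2.72 and 1.71 FPKM in DSS, at 1.51, 1.11, 1.70 and 2.90 in HMLS and at 4.64, 1.19, 3.24, 1.96 and 3.01 in TM, against 3.60 to 10.8 with a median of 5.16 in CON. As with Mcm2, DSS 1 and TM 3 alone reached the CON range. The log2 difference was -0.97 ± 0.24 in DSS, -1.31 ± 0.24 in HMLS and -0.90 ± 0.25 in TM (limma adjusted p = 0.00904, 0.00153 and 0.0183), and in DSS it had the smallest p of the members.

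Pcna was at 64.2, 38.3, 34.7, 39.7 and 33.8 FPKM in DSS, at 29.0, 31.3, 49.1 and 47.2 in HMLS and at 50.2, 30.3, 36.3, 37.0 and 39.9 in TM, against 50.9 to 88.1 with a median of 54.3 in CON. HMLS and TM did not overlap CON, and in DSS only DSS 1 did. Rfc4 was at 3.45, 3.22, 2.27, 4.65 and 1.98 FPKM in DSS, at 1.90, 3.33, 2.19 and 5.16 in HMLS and at 3.86, 1.96, 3.39, 1.89 and 3.40 in TM, against 3.9988 to 8.24 with a median of 4.41 in CON. TM lay below CON in every library, while DSS 6 and HMLS 8 stood above the CON median. Pcna fell by 0.54, 0.64 and 0.63 in DSS, HMLS and TM (limma adjusted p = 0.0255, 0.0104 and 0.00525), and Rfc4 by 0.54, 0.56 and 0.62 (0.0333, 0.0427 and 0.0151).

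Groups that did not overlap CON were more frequent in HMLS. Every HMLS library was below every CON library for 10 of 40 members (25%), namely Mcm2 to Mcm7, Pcna, Cdc6, Pola1 and Prim1, against 7.07% of 13786 genes. The count was 2 of 40 in TM (5%; Pcna and Rfc4), against 3.33%, and 0 of 40 in DSS, against 3.66%. The share in TM was near its background. Of the members counted in HMLS, Cdc6 was below 1 FPKM in every HMLS library and met the filter through other groups.

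The remaining replication members reached the threshold mostly in HMLS. Among origin and helicase factors, Cdt1 fell in HMLS (log2 difference -0.62, adjusted p = 0.0228) and TM (-0.58, 0.0236), and Cdc6, Gins1 and Gins2 fell in HMLS (-0.57, -0.73 and -0.65). Cdc6 was at 0.310 to 0.662 FPKM in HMLS, so it met the filter of this comparison only through CON. Gins1, at 0.167 to 1.01 FPKM in HMLS, met it mainly through CON. The calls of Cdc6 and Gins1 therefore rest partly on how the filter chose genes. Uhrf1, which carries DNA methylation over to the new strand, fell by 1.47 in HMLS (0.00668), the DNA ligase Lig1 by 0.75 (0.00733), and the ribonucleotide reductase subunits Rrm1 and Rrm2 by 0.57 and 0.92 (0.038 and 0.0341). Mcm10, Cdc45 and Fen1 did not pass in any comparison, with values from -0.59 to -0.21.

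Tyms stood apart from the other replication members. It was at 20.7, 13.7, 19.5, 19.2 and 22.5 FPKM in DSS, at 15.8, 17.2, 12.9 and 16.2 in HMLS and at 14.8, 15.8, 13.6, 12.6 and 12.7 in TM, against 11.4 to 18.3 with a median of 15.8 in CON. Of the DSS libraries 4 were above every CON library and DSS 2 was below the CON median. The log2 difference was 0.25 ± 0.12 in DSS (adjusted p = 0.138), -0.02 ± 0.12 in HMLS (0.922) and -0.17 ± 0.10 in TM (0.239), so it passed in none. Without DSS 2 it was called higher in DSS, the only member called higher under any library left out.

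The mitosis members had wide ranges within each colitis group. Mki67 was at 27.1, 5.42, 5.13, 9.13 and 5.04 FPKM in DSS, at 3.18, 3.81, 8.55 and 13.2 in HMLS and at 23.4, 6.46, 8.14, 5.22 and 7.04 in TM, against 7.84 to 28.2 with a median of 13.2 in CON. DSS 1 and TM 3 lay between the highest and the next highest CON library, and 8 of the other 12 colitis libraries were below every CON library. The log2 difference was -1.05 ± 0.35 in HMLS (adjusted p = 0.0336), but -0.69 ± 0.36 in DSS (0.161) and -0.63 ± 0.32 in TM (0.163) did not pass.

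Top2a, which untangles the copied chromosomes, was at 26.8, 5.54, 3.72, 9.98 and 3.13 FPKM in DSS, at 3.14, 2.33, 8.16 and 11.7 in HMLS and at 20.1, 4.82, 6.67, 4.72 and 7.59 in TM, against 8.09 to 26.8 with a median of 13.3 in CON. Within DSS the highest library was 8.58 times the lowest, within HMLS 5.05 times, within TM 4.26 times and within CON 3.31 times. It fell by 1.20 ± 0.37 in HMLS (0.026), with -0.81 ± 0.41 in DSS (0.149) and -0.77 ± 0.33 in TM (0.0979).

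Ccnb1, the cyclin partner of Cdk1, was at 9.67, 2.14, 1.57, 5.01 and 1.75 FPKM in DSS, at 1.23, 1.60, 6.51 and 6.09 in HMLS and at 12.3, 2.83, 3.29, 3.46 and 3.12 in TM, against 4.17 to 12.0 with a median of 6.28 in CON. Cdk1 was at 9.24, 2.13, 2.66, 3.88 and 1.76 FPKM in DSS, at 1.26, 0.830, 4.24 and 5.44 in HMLS and at 8.35, 2.67, 2.39, 1.91 and 2.52 in TM, against 3.12 to 8.94 with a median of 4.43 in CON. For both genes DSS 1 and TM 3 were far above the rest of their groups, and HMLS was split into a low pair, HMLS 3 and HMLS 6, and a pair within the CON range, HMLS 7 and HMLS 8. Neither gene passed in DSS (-0.78 and -0.35, adjusted p = 0.0875 and 0.37), in HMLS (-0.80 and -0.69, 0.0876 and 0.106) or in TM (-0.48 and -0.43, 0.255 and 0.239).

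Of the other mitosis members the spindle motor Kif11 (-1.06, adjusted p = 0.0105), the checkpoint kinase Bub1b (-0.87, 0.0174) and the anaphase activator Cdc20 (-0.87, 0.0457) fell in HMLS. The Aurora kinase Aurkb (-0.90, 0.0507), the checkpoint kinase Bub1 (-0.63, 0.0521) and the spindle assembly factor Tpx2 (-0.65, 0.0557) narrowly missed the threshold there. Ccna2, Ccnb2, the kinetochore genes Cenpe and Cenpf, the spindle protein Nusap1 and the kinase Plk1 did not pass anywhere. Aurka and Birc5, the Aurora A kinase and survivin, had values of 0.01 and 0.23 in DSS and 0.06 and 0.11 in TM, the only mitosis members at or above CON there, and -0.38 and -0.52 in HMLS, and passed in none.

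**Figure D2:**
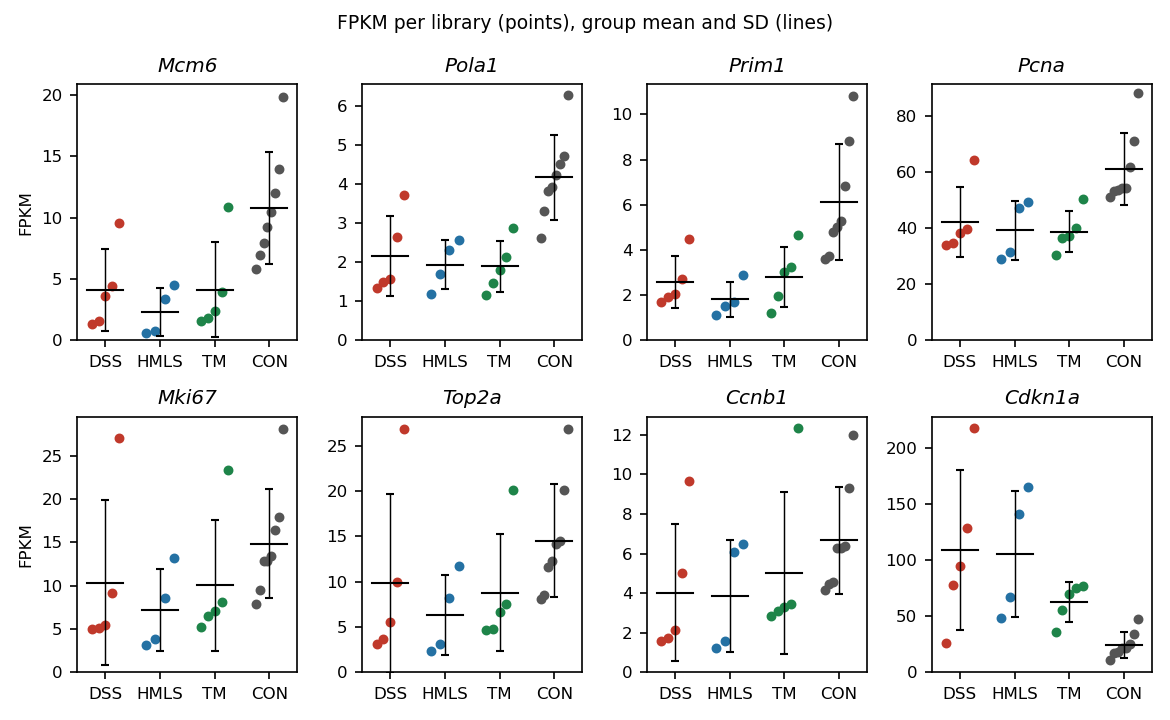
FPKM (y axis, from 0) of 7 members and of the cell cycle inhibitor Cdkn1a in each library (points), with the group mean and SD, for DSS, HMLS, TM and CON. The single high DSS and TM points of Mki67, at 27.1 and 23.4, are DSS 1 and TM 3, and the lowest Cdkn1a points of these groups, at 25.8 and 35.7, are the same 2 libraries.

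In each group a single library carried the highest level of most members. DSS 1 was the highest DSS library for 37 of 40 members (19 of 22 for replication, 18 of 18 for mitosis), where it was the highest for 18.6% of 13786 genes. TM 3 was the highest TM library for 39 of 40, against 29.2% of all genes, and CON 1 the highest CON library for 38 of 40, against 19.4%. CON 2 was the lowest CON library for 23 of 40, against 9.95% of all genes. In HMLS the share was smaller: HMLS 8 was the highest HMLS library for 23 of 40, against 26.2% of all genes, and HMLS 6 the lowest for 20 of 40, against 21.3%.

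In DSS 1 and TM 3 the classes parted. DSS 1 exceeded every CON library for 12 of 18 mitosis members but for 2 of 22 replication members, and TM 3 for 8 of 18 and for 1 of 22. All 18 mitosis members were at or above the CON median in both, against 14 replication members in DSS 1 and 16 in TM 3. The HMLS libraries parted too. HMLS 7 was below every CON library for 19 of 22 replication members and for 2 of 18 mitosis members, and HMLS 8 for 12 and for 0. HMLS 3 was below for 17 and for 17, and HMLS 6 for 21 and for 17. The share of all genes outside the CON range was not counted for single libraries. These counts therefore set the classes against each other within a library only.

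Averaged over the class, log2(FPKM + 1) of replication members minus that of mitosis members was -0.64 in DSS 1, -0.54 in TM 3, -0.45 in HMLS 7 and -0.42 in HMLS 8. It lay between -0.30 and 0.38 in the other 10 colitis libraries, against -0.16 to 0.27 in CON. The mean of the mitosis members was 3.49 in DSS 1 and 3.46 in TM 3, as high as in CON 1 (3.49), while that of the replication members was 2.85 and 2.92, against 3.42 in CON 1. The share of reads mapped was also highest in these libraries within their groups, 88.9% in DSS 1 (DSS 82.3% to 88.9%) and 92.7% in TM 3 (TM 89.5% to 92.7%), and its part in their levels was not tested.

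**Figure D3:**
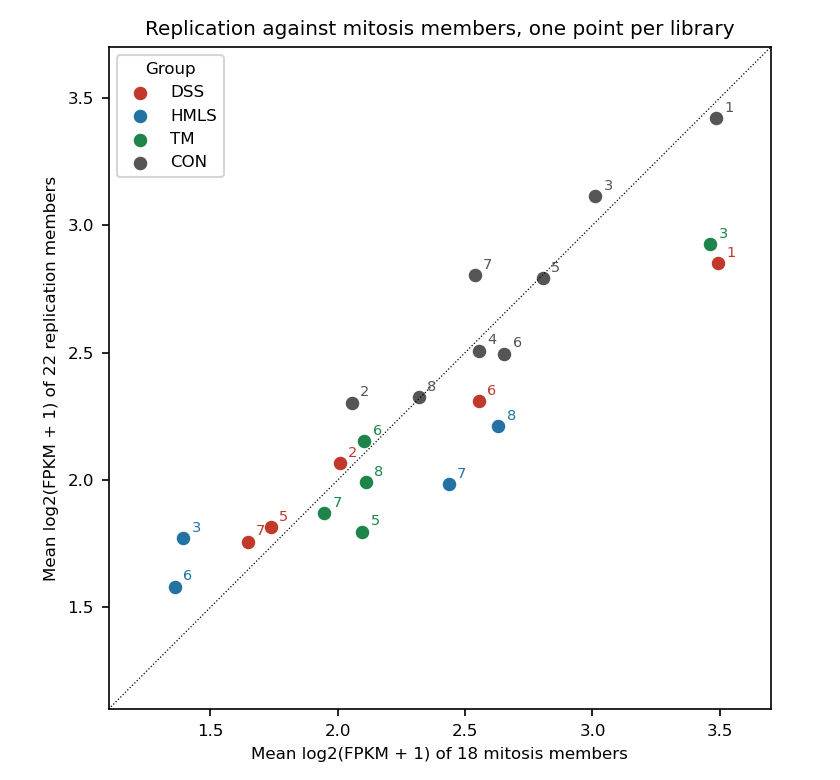
The mean log2(FPKM + 1) of the 22 replication members (y axis) against that of the 18 mitosis members (x axis), one point per library, labelled with its replicate number and coloured by group; the dotted line marks equal means. DSS 1, TM 3, HMLS 7 and HMLS 8 lie farthest below the line, at differences of -0.64, -0.54, -0.45 and -0.42.

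**Figure D4:**
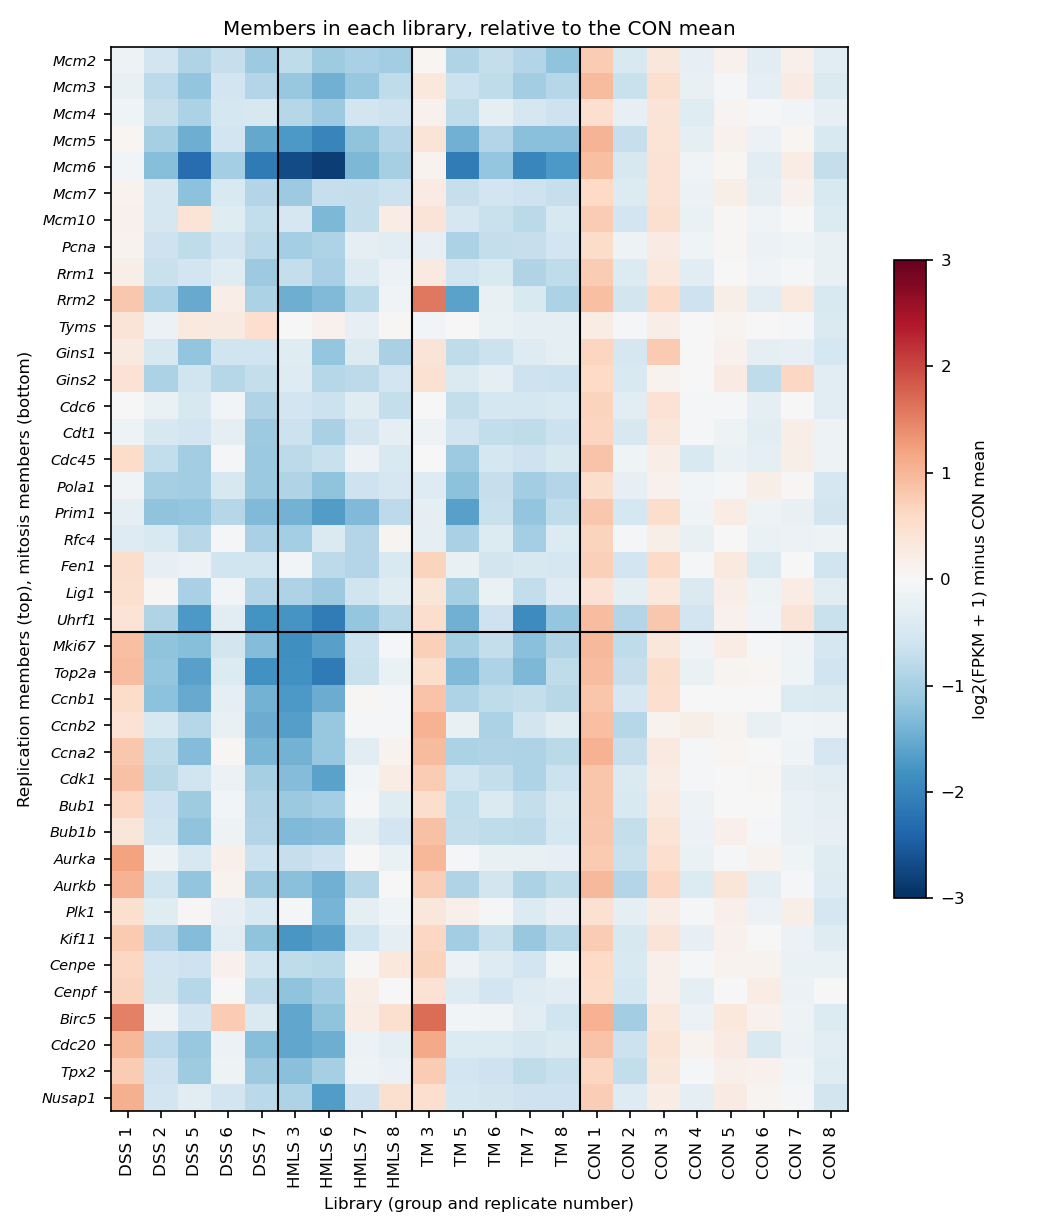
log2(FPKM + 1) of each member (rows, replication above the line and mitosis below) minus its CON mean, in each library (columns, by group). Mcm6 is the darkest blue row, the DSS 1 and TM 3 columns turn red among the mitosis members, and CON 1 is red in nearly every row.

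The calls of mitosis members in DSS and TM turned on DSS 1 and TM 3. These libraries were singled out as the highest for most members. Leaving them out therefore lowers most members' group means by construction, and the new p-values are no independent support. Without DSS 1, 29 members were lower in DSS, 16 of replication and 13 of mitosis, where 15.2% of 13435 genes were called lower. Without TM 3, 28 were lower in TM, 17 of replication and 11 of mitosis, where 14.9% of 13436 genes were. The log2 difference of Mki67 was then -1.09 in DSS (limma adjusted p = 0.00735) and -0.97 in TM (0.0111), that of Top2a -1.25 (0.00866) and -1.09 (0.00773), and that of Cdk1 -0.65 (0.0338) and -0.72 (0.0103). Mki67 averaged 6.18 ± 1.97 FPKM over the remaining 4 DSS libraries and 6.71 ± 1.22 over the remaining 4 TM libraries, against 14.9 ± 6.30 in CON. Aurka and Birc5 still did not pass (-0.29 and -0.09 in DSS, -0.18 and -0.28 in TM). CON 1, the highest CON library for most members, was kept in these fits. Leaving out CON 1 alone moved the differences the other way. The replication median was then -0.45 in place of -0.54 in DSS and -0.40 in place of -0.52 in TM. The mitosis median in TM was -0.26 in place of -0.37.

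Leaving out other libraries moved the counts both ways. Without DSS 5 or DSS 7, 3 and 4 members were called lower in DSS. Without HMLS 3 or HMLS 6, 15 and 12 were called in HMLS, of them 1 mitosis member each, and without CON 3 or CON 5 there were 3 mitosis members. Without HMLS 7 or HMLS 8 there were 10 mitosis members, and 9 and 8 without CON 2 and CON 8. In TM, 4 members were called without TM 5 or TM 7. The number of all genes called, in either direction, changed as well. It was 2493 without DSS 7 in place of 3655 in DSS, and 2501 without TM 5 in place of 3510 in TM. In HMLS it was 3106 without HMLS 8 in place of 4565, although more mitosis members were called there. Mcm6, Pola1 and Prim1 stayed lower in DSS without any 1 library, Pcna, Mcm6, Pola1 and Rfc4 in TM, and Mcm2 to Mcm7, Pcna, Pola1, Prim1, Lig1, Uhrf1 and Kif11 in HMLS.

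**Figure D5:**
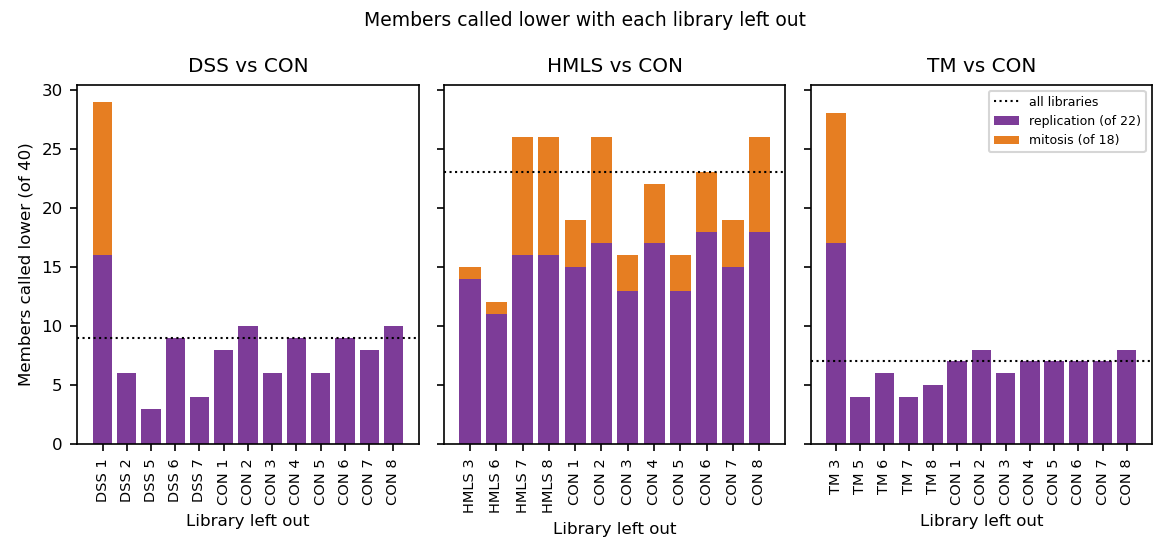
The number of members called lower than CON (y axis, of 40) when the library on the x axis is left out, split into replication and mitosis members, with the count from all libraries as a dotted line (9, 23 and 7). The tallest bars of the outer panels are 29 without DSS 1 and 28 without TM 3.

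The deep sea water groups were set against DSS and against each other in a shared fit of the colitis libraries, in which Cdc6 fell below the filter and 39 members were tested. In HMLS against DSS none of 13341 genes was called (0%), 740 genes (5.55%) had an unadjusted p under 0.05, and none of these was a member. All 39 members had a negative difference, with a median of -0.27 over replication and -0.35 over mitosis members. That of Mcm6 was -0.61 with a 95% interval from -1.75 to 0.53, and that of Mki67 -0.35 from -1.44 to 0.73, so both intervals reach beyond a 2-fold decrease (-1 on the log2 scale) and also above 0. Without DSS 1 the medians were -0.14 and 0.01, and with the percent mapped as a covariate they were -0.49 and -0.81.

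In TM against DSS none of 13341 genes was called (0%), 367 (2.75%) had an unadjusted p under 0.05, and 1 of them was a member, Tyms (-0.42 ± 0.13). The medians were -0.02 over replication and 0.05 over mitosis members. They were 0.19 and 0.31 without DSS 1, -0.21 and -0.22 without TM 3, and -0.55 and -0.64 with the percent mapped as a covariate, so their sign turned on these settings. In HMLS against TM none was called (0%), 1260 genes (9.44%) had an unadjusted p under 0.05, and no member did. The medians were -0.34 and -0.41, -0.11 and -0.11 without TM 3, and -0.13 and -0.12 with the covariate. Mcm6 had -0.59 (95% interval -1.74 to 0.55) and Mki67 -0.41 (-1.50 to 0.67) in HMLS against TM. The intervals of Mcm6 and Mki67 span 0, which does not show that the waters act alike.

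Further genes of the same pathways were tested alongside, against the all-gene shares called lower of 13.1% in DSS, 16.6% in HMLS and 11.8% in TM. Of 36 further replication genes tested, 8 fell in DSS, 18 in HMLS and 14 in TM, and none rose. Among the colitis libraries alone, 32 genes of this list and 55 of the mitosis list below met the filter. Calls of the others rest partly on how the filter chose genes. Cdc7, the kinase that fires licensed origins, fell by 0.86, 1.26 and 1.05 on the log2 scale, at 1.95 ± 0.987, 1.18 ± 0.553 and 1.56 ± 0.894 FPKM in DSS, HMLS and TM (SD, n = 5, 4 and 5), against 4.27 ± 1.41 in CON (n = 8). Dut, which keeps uracil out of DNA, fell by 0.83, 0.94 and 0.90, the clamp loader subunit Rfc2 by 0.77, 0.96 and 0.77, and the polymerase delta subunit Pold1 by 0.71, 1.07 and 0.77. Of 57 further mitosis genes 2 fell in DSS, 16 in HMLS and 3 in TM, and none rose, so in DSS and TM the share called was below that of all genes. The centromere gene Cenpn was lower in all 3 comparisons (-0.58, -0.52 and -0.49). The kinase gene Pbk (-1.27 and -0.98) and the cytokinesis gene Ect2 (-0.78 and -0.69) were lower in HMLS and TM.

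Regulators of the entry into the cycle moved in both directions. Of the G1 and S entry regulators tested, 4 fell and 1 rose of 25 in DSS, 10 fell and 2 rose of 24 in HMLS, and 6 fell and 1 rose of 25 in TM. The all-gene shares called higher were 14%, 17.5% and 14.3%. Among the colitis libraries alone, 23 genes of this list met the filter. Cdk4 and Cdk6, the kinases of the cyclins D, fell in each (Cdk4 by 0.76, 1.19 and 0.72; Cdk6 by 0.69, 0.65 and 0.82). Cyclin D1 (Ccnd1) fell in HMLS by 0.96 (limma adjusted p = 0.000559), at 11.6, 10.2, 17.4 and 12.3 FPKM, against 19.4 to 31.1 with a median of 26.2 in CON, and these do not overlap. It did not pass in DSS (-0.32, 0.314) or TM (-0.41, 0.165), where DSS 1 and TM 3 had 38.2 and 38.6 FPKM, above every CON library. Myc, which drives growth and cell cycle entry, had a log2 difference of -1.002 in HMLS, which passed (0.00197), with -0.53 in DSS (0.0846) and -0.46 in TM (0.147).

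Cdc25a, the phosphatase that activates the S phase kinases, went the other way. It averaged 21.9 ± 2.9986 FPKM in DSS, 19.8 ± 3.19 in HMLS and 20.8 ± 5.56 in TM, against 12.9 ± 1.52 in CON, and rose by 0.72, 0.58 and 0.62 on the log2 scale (limma adjusted p = 0.000684, 0.00227 and 0.00422). E2f1 was too low to be tested in HMLS, at 0.160 to 0.410 FPKM, against 0.425 to 1.90 in CON, and did not pass in DSS (-0.22, adjusted p = 0.441) or TM (-0.22, 0.386). Of 10 mitotic transcription regulators, 1 rose in each comparison, Lin54 of the DREAM complex (0.51, 0.71 and 0.34), and none, 1 and 1 fell. The 1 that fell was Nfya, a subunit of the factor that binds the CCAAT element (-0.71 in HMLS and -0.43 in TM). Foxm1 and Mybl2 did not pass in DSS (0.08 and 0.02), HMLS (-0.37 and -0.40) or TM (-0.01 and 0.08). Foxm1 was at 5.06 FPKM in DSS 1 and 4.37 in TM 3, against at most 3.85 in CON.

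The strongest rise among the cell cycle lists was that of Cdkn1a, which encodes the CDK inhibitor p21. It was at 25.8, 78.1, 217.7, 94.6 and 128.8 FPKM in DSS, at 141.2, 48.3, 67.6 and 165.2 in HMLS and at 35.7, 77.1, 55.4, 75.6 and 70.2 in TM, against 11.4 to 47.9 with a median of 21.8 in CON. Every HMLS library was above every CON library, and only DSS 1 and TM 3 of the others fell within the CON range. Its log2 difference was 1.92 ± 0.42 in DSS, 1.99 ± 0.38 in HMLS and 1.37 ± 0.28 in TM (adjusted p = 0.00629, 0.00237 and 0.00407). Of the 6 CDK inhibitors tested, 3, 2 and 2 rose and none fell, with Cdkn1c at 0.89, 0.59 and 0.99. Of 14 further p53 targets 3 rose and 2 fell in DSS, 5 and 1 in HMLS, and 3 and 2 in TM. Over all genes tested, 14%, 17.5% and 14.3% were called higher in DSS, HMLS and TM, and 13.1%, 16.6% and 11.8% lower. These lists are small, and whether their counts exceed those shares was not tested. Gadd45a (0.88, 1.03 and 0.70) and Plk3 (1.02, 1.09 and 0.82) rose in each, and Ccng1 fell in each (-0.48, -0.32 and -0.39).

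Markers of crypt stem cells were also lower in the colitis groups, but followed the members only in part from library to library. Their part in the result was not tested. Of 13 crypt stem cell markers tested, 12 fell in DSS, 10 in HMLS and 9 in TM, and none rose. All-gene shares called lower were 13.1%, 16.6% and 11.8%. Among the colitis libraries alone, 10 markers of this list met the filter. Lgr5 was below 1 FPKM in every colitis library and met it only through CON. The calls of such markers therefore rest partly on how the filter chose genes. The mean log2 value of all 14 listed markers was 2.35 to 2.67 in DSS, 2.19 to 2.58 in HMLS and 2.30 to 2.61 in TM, against 3.20 to 3.45 in CON, with no overlap. DSS 1 and TM 3 (2.43 and 2.61) were also below every CON library. TM 3 was the highest TM library for these markers as for both member means. CON 1 and CON 2 had nearly equal marker means, 3.42 and 3.40, where the means of the replication members were 3.42 and 2.30. The summed level of the stem cell markers was 164.1 to 280.6 FPKM in DSS, 127.1 to 239.6 in HMLS and 187.4 to 279.6 in TM, against 251.2 to 306.4 in CON. Lgr5, the receptor of crypt base stem cells, was at 0.0409 to 0.300 FPKM in DSS, 0.118 to 0.456 in HMLS and 0.0269 to 0.317 in TM, against 1.42 to 2.96 in CON, and Ascl2 was listed at 0 in some libraries of each colitis group. The pan-epithelial markers did not fall: none of 12 was lower and 3, 3 and 5 were higher, against all-gene shares called higher of 14%, 17.5% and 14.3%. Epcam was at 759.8 ± 96.8, 775.9 ± 71.8 and 730.1 ± 71.3 FPKM, against 720.8 ± 84.9 in CON.

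B cells also occur in the colon's lymphoid follicles and divide in their germinal centres. Of 12 general B cell markers 5 fell in DSS, 9 in HMLS and 1 in TM. Among the colitis libraries alone, 8 of this list met the filter. The others met it mainly through CON, so their calls rest partly on how the filter chose genes. The summed level of the B cell markers was 4.43 to 24.0 FPKM in DSS, 2.13 to 12.3 in HMLS and 11.0 to 46.7 in TM, against 9.22 to 80.0 in CON. On the mean log2 scale of these markers DSS 1 (0.87) and TM 3 (1.20) were the median libraries of their groups, and CON 1 (2.73) was the highest library of all. Germinal centre B cell markers were mixed, with 1 lower and 1 higher of 6 tested in DSS, 4 and 1 of 6 in HMLS and 1 and 0 of 7 in TM, and the summed level of all 9 listed had a median of 25.01 FPKM in DSS, 24.7 in HMLS and 24.4 in TM, against 25.2 in CON. Of 9 fibroblast markers 8, 8 and 4 fell, with summed levels of 85.7 to 227.3, 117.9 to 165.5 and 128.2 to 502.6 FPKM, against 260.9 to 410.1 in CON, the highest value of all being in TM 3. Of 10 macrophage markers 3, 6 and 1 fell and 1, 0 and 1 rose. The all-gene shares were 13.1%, 16.6% and 11.8% lower and 14%, 17.5% and 14.3% higher in DSS, HMLS and TM. Among the colitis libraries alone, 8 fibroblast and 9 macrophage markers met the filter.

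Some markers of smooth muscle and of fat were also lower in DSS and TM. Of 7 adipocyte markers tested, 5 fell in DSS, 0 in HMLS and 6 in TM, with median log2 differences of -2.06, -1.20 and -2.03. Their summed level was 47.7 to 140.8 FPKM in DSS, 55.1 to 537.5 in HMLS and 37.9 to 116.6 in TM, against 81.7 to 1014 in CON. Of 9 smooth muscle markers 3, 0 and 4 fell, with medians of -0.56, -0.06 and -0.41 and summed levels of 601.8 to 2302, 1397 to 2573 and 880.6 to 1906 FPKM, against 1318 to 2585 in CON. Of 6 T cell markers 1, 2 and 0 fell. Of 11 differentiated colonocyte markers 1, 1 and 2 fell and 5, 3 and 1 rose. Over all genes tested, 13.1%, 16.6% and 11.8% were called lower in DSS, HMLS and TM, and 14%, 17.5% and 14.3% higher. Counts such as 1 of 6 or 1 of 11 are near these shares. The part of these cell types in the members' levels was not tested.

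The libraries held 48089882 to 68733410 reads. The share mapped was 82.3% to 88.9% in DSS, 88.8% to 90.5% in HMLS and 89.5% to 92.7% in TM, against 89.9% to 91.9% in CON, so DSS and CON did not overlap. With this share as a covariate, 26 genes and none of the members were called in DSS against CON, where it cannot be told apart from the group, and 17 and 7 members in HMLS and TM. The log2 difference of Mcm6 was -1.09 with the covariate in DSS (adjusted p = 0.362), -2.204 in HMLS (0.00914) and -1.44 in TM (0.0141).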

How the data were processed

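The deposited table gives 1 value per gene and library, read here as FPKM because the submitters' processing notes name Cufflinks 2.2.0; the table itself names no unit. Those notes also name bcl2fastq 2.20, Bowtie, TopHat2 2.0.13 and mm10, with no settings. Per the labels, total RNA went through a stranded kit. A second deposited table holds counts of reads and of mapped reads and the percent mapped per library, as the authors gave them. The test was limma 3.58.1 (R 4.3.3; trended, robust variance) on log2(FPKM + 1). It covered the genes that reached 1 FPKM in 4 or more of the fitted libraries, with Benjamini-Hochberg adjustment over all of them and a threshold of 0.05. Each comparison with CON was fitted on its own groups, and the colitis groups together. The procedure was tested on simulated data. The members and lists were chosen with earlier results of these data known. All 40 members are described, with values per library for those called in DSS against CON and for Mki67, Top2a, Pcna, Ccnb1 and Cdk1; up to 6 called genes per pathway list and comparison, by smallest p, could be named, plus Foxm1, Mybl2, E2f1, Myc, Ccnd1 and Cdkn1a. Values per library of Tyms and of cell type markers were chosen after they were seen. Same-numbered TM and DSS libraries deviated together (correlations 0.137 to 0.46 over 3 pairs), which the labels do not explain. In only 1 of the 3 pairs did the TM library correlate best with the DSS library of its own number. Alternatives were the pseudocount, the filter, scaling, a joint fit, the percent mapped as a covariate, a replicate block, plain variance and leaving out each library.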

Additional observations from a re-analysis of the deposited data

Results flagged for a closer look

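Within a group, the gap between the highest or lowest library and its nearest neighbour was divided by the group's range. The scale was log2(FPKM + 1) for members and class means, and percent for the share of reads mapped. Of 176 such tests 25 passed Dixon's limit, which chance passes in about 1 of 20 groups. The members vary together across libraries, so these tests are not independent and that rate does not gauge their count. TM 3 was the library in 20 of the 25, always as the highest. Among replication members the ratio for TM 3 was 0.715 for Mcm3, 0.864 for Mcm7, 0.732 for Mcm10, 0.726 for Cdt1 and 0.733 for Fen1. Among the cyclins, kinases and checkpoint genes it was 0.878 for Ccnb1, 0.928 for Ccna2, 0.8 for Cdk1, 0.768 for Bub1, 0.843 for Bub1b, 0.835 for Aurka, 0.767 for Aurkb and 0.943 for Cdc20. For the remaining mitosis members it was 0.718 for Mki67, 0.742 for Kif11, 0.754 for Cenpf, 0.773 for Birc5, 0.867 for Tpx2 and 0.916 for Nusap1, and it was 0.892 for the mean of the mitosis members. DSS 1 was the highest library for Pcna (0.748), Gins2 (0.737) and Nusap1 (0.737). CON 8 was the lowest CON library for Tyms (0.609), and CON 1 the highest for Rfc4 (0.541).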

How the results depend on the processing

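No member changed direction past the threshold: of 4919 member values under all alternatives, 4700 kept their side of the threshold, 131 lost and 88 gained a call. Each comparison between colitis groups gave 853 of these values, and no member was called there to begin with. All losses came from the 9, 23 and 7 calls against CON in DSS, HMLS and TM, at 35, 86 and 10. Gains there numbered 30, 27 and 31. With the percent mapped as a covariate, DSS against CON had 26 genes called in place of 3655, and 0 members and 0 replication members, while HMLS had 1 mitosis member. Median-of-ratios scaling gave 8 mitosis members in HMLS, and a fit of all 4 groups gave 2. With the replicate block, DSS had 2176 genes and 2 mitosis members (Mki67 and Ccnb1), HMLS 753 genes in place of 4565, 5 members, 5 of replication and 0 of mitosis, and TM 2000 genes in place of 3510 and 12 members, all 12 of replication. Same-numbered libraries did not deviate together in these comparisons (correlations -0.211 to 0.335 over 5 pairs in DSS, -0.125 to 0.0797 over 4 in HMLS and -0.00138 to 0.208 over 5 in TM), so the pairing rests on a number alone, and the block changed no call between colitis groups. Leaving out each library in turn gave 3 to 29 members lower and 0 to 1 higher in DSS, with 3 to 16 of replication and 0 to 13 of mitosis. It gave 12 to 26 members in HMLS (11 to 18 and 1 to 10) and 4 to 28 in TM (4 to 17 and 0 to 11). Over all genes, in either direction, it gave 2493 to 4166 calls in DSS, 3106 to 4808 in HMLS and 2501 to 4170 in TM. In HMLS against DSS leaving out each library gave 0 to 1 genes and in HMLS against TM 0 to 3, none of them a member. Leaving out DSS 1 and TM 3 together was chosen after seeing the data. The cause of these changes was not tested.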
